A study of Mus musculus with 8 samples.

Results

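The 1219 chromatin regions described here were more accessible in FLK1+ mesoderm cells that lack Etv2 and less accessible in cells in which Etv2 was induced. They were selected on group means of normalized ATAC reads, with L(a, b) standing for log2((mean of a + 5)/(mean of b + 5)). A region was kept where L of the Etv2 knockout against its wild type was at least 0.8 and L of the Etv2-induced cells against theirs was at most -0.8. The wild-type SP mean had to lie less than 1 log2 unit above the wild-type DP mean, and the knockout and wild-type SP means each had to reach 20 normalized reads. Chromosome 8 was left out. Of 168842 regions in the table, 102909 lay outside chromosome 8 with enough signal in those groups, and the members were 1.18% of these. Because the values of all 4 groups chose the members, their changes are given as descriptions, with no test, and a rise or fall of a member means only that L passed those limits.

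The cells came from mouse embryoid bodies, which form when embryonic stem cells differentiate in suspension, and were taken on day 4. They were sorted on FLK1, the VEGF receptor made by Kdr, and on PDGFRalpha: DP cells were PDGFRalpha+FLK1+ and SP cells were PDGFRalpha-FLK1+. WT DP and WT SP cells were wild-type A2lox.Cre cells, KO DP cells came from an Etv2 knockout line, and OE SP cells came from the iETV2 line given doxycycline at 2 µg/ml from day 2.5. Each group had 2 libraries of 50000 cells, read as 75 bp paired ends. The knockout is given as DP cells and the induced line as SP cells, and the other sort of each was not analysed here. The line goes with the genotype, and doxycycline is labelled for the iETV2 cells alone, so that Etv2, line and drug cannot be told apart. The labels do not state that libraries of a group were separate cultures, so any p-value covers only the spread between these libraries, and that spread may be technical.

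Etv2 belongs to the ETS family of DNA-binding proteins and is needed for the first endothelial and blood cells of the embryo. FLK1+ mesoderm without it is known to give rise to other mesoderm, including heart muscle and paraxial derivatives. In ATAC, the Tn5 transposase cuts open chromatin, so that reads gather at promoters, which sit at gene starts and are often rich in CG pairs, and at distal elements such as enhancers.

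Member regions rarely lay on promoters, and 16 promoter windows overlapped one. The windows are RefSeq's, on build GRCm38.p6, which has the coordinates of the deposited build mm10, and run from 250 bases before to 50 after each start. The windows below are shown because they are the promoters of the set that hold AGATAA, the letters of the GATA motif, more than once or with the largest knockout change, and because the last is the start of the transcript Gm51018, just before the miR-302 cluster. Capitals mark matches on either strand to the 15 motifs searched, and each sequence is 5′ to 3′ on the gene's strand.
Gdf2, chr14:33940789-33941088, plus strand: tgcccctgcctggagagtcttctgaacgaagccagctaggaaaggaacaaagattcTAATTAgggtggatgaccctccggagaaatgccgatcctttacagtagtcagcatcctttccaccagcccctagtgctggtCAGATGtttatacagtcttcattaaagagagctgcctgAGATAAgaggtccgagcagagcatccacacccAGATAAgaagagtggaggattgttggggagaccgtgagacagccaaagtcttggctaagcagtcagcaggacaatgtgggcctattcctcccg
Smpx, chrX:157698723-157699022, plus strand: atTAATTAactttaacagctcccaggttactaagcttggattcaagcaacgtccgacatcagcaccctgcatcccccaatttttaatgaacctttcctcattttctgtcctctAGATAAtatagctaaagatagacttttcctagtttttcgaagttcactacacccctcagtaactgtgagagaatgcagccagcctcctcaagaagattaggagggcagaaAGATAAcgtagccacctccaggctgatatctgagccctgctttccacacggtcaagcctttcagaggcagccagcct
Shld1, chr2:132689907-132690206, plus strand: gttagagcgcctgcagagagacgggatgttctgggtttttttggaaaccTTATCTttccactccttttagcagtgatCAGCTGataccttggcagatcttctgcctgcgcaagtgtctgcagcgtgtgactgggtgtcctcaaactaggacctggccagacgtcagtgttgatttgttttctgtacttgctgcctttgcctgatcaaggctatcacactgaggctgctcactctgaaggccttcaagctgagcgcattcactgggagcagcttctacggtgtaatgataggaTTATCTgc
Gm33760, chr4:128877389-128877688, plus strand: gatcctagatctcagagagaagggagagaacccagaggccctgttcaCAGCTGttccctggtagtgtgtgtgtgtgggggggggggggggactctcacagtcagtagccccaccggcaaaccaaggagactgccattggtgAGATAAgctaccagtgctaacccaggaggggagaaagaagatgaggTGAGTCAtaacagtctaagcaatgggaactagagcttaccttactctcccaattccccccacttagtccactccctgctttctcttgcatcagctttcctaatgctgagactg
Gm51018, chr3:127544839-127545138, plus strand: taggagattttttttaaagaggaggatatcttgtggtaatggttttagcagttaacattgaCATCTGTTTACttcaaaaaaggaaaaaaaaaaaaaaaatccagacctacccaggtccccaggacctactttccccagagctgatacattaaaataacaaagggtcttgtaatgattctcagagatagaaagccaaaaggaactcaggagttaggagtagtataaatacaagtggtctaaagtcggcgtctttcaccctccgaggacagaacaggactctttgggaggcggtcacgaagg
In the Gm51018 window the E-box and FOX matches overlap and print as 1 run of capitals.

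AGATAA stood in 6 of the 16 windows (37.5%): those of Gm28382, Shld1, Gm33760, Gdf2, Plac1 and Smpx. It stood in 6.52% of the 13215 windows that overlapped any region with enough signal and in 11.2% of all 32851 windows. The 16 windows held few CG pairs, with a median of 5 against 20 in those 13215, and none held more than 9. Among the 2726 windows with at most 9 CG pairs, a comparison chosen after seeing the data, AGATAA stood in 15.2%. The ETS letters CCGGAA stood in none of the 16 windows, in 25.6% of the 13215 and in 8.58% of the 2726. A second ETS spelling, ACAGGAA, stood in 1 window, that of Sh2d1b1, or 6.25% against 6.67%. The other motifs were FOX TGTTTAC (18.8% against 2.65%), AP-1 TGANTCA (4 windows, against 4.99%), homeobox TAATTA (18.8% against 2.58%) and T-box AGGTGTGA (6.25% against 0.855%). MEIS TGACAG (4 windows, against 17.2%), the E-boxes CAGATG (4 windows, against 11.9%) and CAGCTG (18.8% against 16.4%), and LEF/TCF CTTTGAT (6.25% against 2.57%) followed. TEAD GGAATG was found in 1 window, against 1588 of the 13215. SOX ACAATGG, KLF/SP GGGCGGGG and POU ATGCAAAT had no match in the 16 windows, against 2.04%, 32.8% and 1.40%. Among the 2726 windows low in CG pairs several shares moved toward those of the 16 windows or past them. There MEIS stood in 24.5%, CAGATG in 20.7%, CAGCTG in 23.6%, AP-1 in 10.1% and KLF/SP in 9.65%. FOX (4.29%), homeobox (5.83%), T-box (1.91%) and LEF/TCF (4.00%) also moved toward them. TEAD (18.5%), ACAGGAA (11.9%), SOX (3.74%) and POU (2.60%) moved away from them. Matches were counted over the whole window, of which members covered 30 to 300 bp, so that some matches lie outside the member. A match is a description of letters, and 1 window is 6.25% of so small a set.

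Libraries held 12477601 to 18853733 reads in regions. The labels were checked at Etv2, where the region chr7:30634628-30635028 measured 563 and 611 normalized reads in WT DP and 0.840 and 0 in KO DP. It measured 475 and 493 in WT SP and 425 and 645 in OE SP, so that accessibility there gives no check of the induction. Replicates differed by 1.15 to 1.22 times the variance of counting noise (a chi-square on recovered reads, per degree of freedom) in WT DP, KO DP and WT SP, and by 4.38 times in OE SP, whose libraries therefore stand apart from each other. Without OE SP replicate 1 the rule kept 1001 regions, and without OE SP replicate 2 it kept 1422. Kdr carried 28 regions with enough signal and Pdgfra 15. Of the marker genes of other cell types, Myl7 of heart muscle had 1 member, as did the sort marker Kdr, and Pecam1, Tek, Gata1, Runx1, Itga2b, Nkx2-5, Tnnt2, Tbx6, Msgn1, Nanog, Pou5f1, Sox17, Foxa2 and Pax6 had none. The genes listed without a member held 1 (Tbx6) to 50 (Runx1) regions with enough signal. Members were 1.18% of all such regions, so their absence at so few regions is not read as a result. In bulk libraries, fewer cells that hold an open region and a less open region per cell cannot be told apart.

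The members started below the typical region in wild-type cells, rose above it in the knockout and fell far under it with induced Etv2. Their median level in normalized reads was 35.9 in both libraries of WT DP and 78.9 and 83.2 in KO DP. It was 42.7 and 44.6 in the WT SP libraries and 9.48 and 15.8 in OE SP. Over all regions with enough signal the medians of the group means were 61.9 in WT DP, 59.0 in KO DP, 62.6 in WT SP and 46.1 in OE SP. Among the members, the median L was 0.98 in the knockout (10th to 90th percentile 0.83 to 1.41) and -1.35 with induced Etv2 (-2.18 to -0.89). The same medians over all regions with enough signal were -0.07 and -0.36. In 1165 members (95.6%) the KO DP mean was the highest of the 4 groups, and in 1193 (97.9%) the OE SP mean was the lowest.

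**Figure D1:**
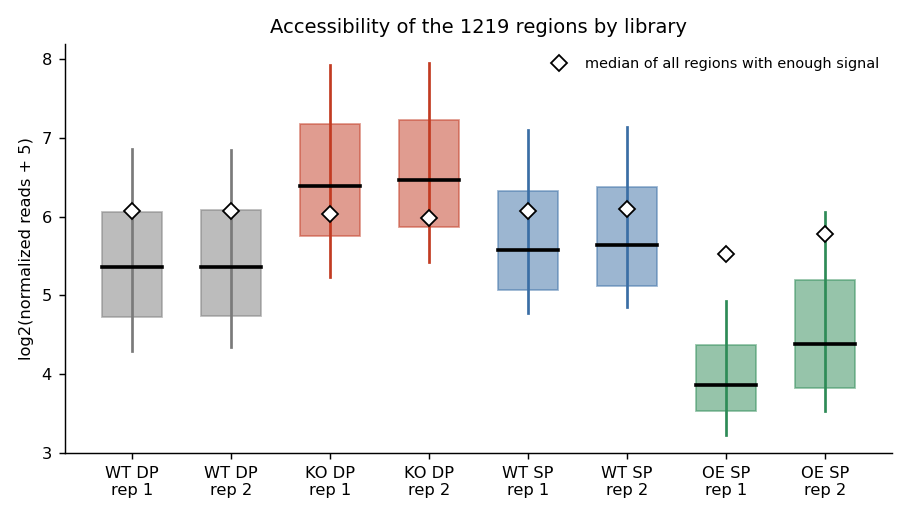
Accessibility of the 1219 members in each library, as log2(normalized reads + 5); boxes span the 25th to 75th percentile, lines the 10th to 90th, the bar is the median, and diamonds give the median of all 102909 regions with enough signal. The member boxes are highest in the KO DP libraries and lowest in the OE SP libraries, and OE SP replicate 1 lies below OE SP replicate 2.

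The rule fixed those directions, and the counts of calls are set beside their background for scale. A fit of all regions with limma, with a Benjamini-Hochberg adjusted p below 0.05 as the call, called 462 members higher in KO DP, where 1.72% of the 167573 regions tested were called higher. It called 1202 members lower in OE SP against 31.9% of all regions, and 461 members in both comparisons against 0.615%. The knockout count turned on single libraries. It was 47 and 49 without WT DP replicates 1 and 2, 35 and 31 without KO DP replicates 1 and 2, 211 and 212 without WT SP replicates 1 and 2, and 1219 without either OE SP library. A fit of WT DP and KO DP alone also called 1219, and which of its differences from the fit of all libraries sets that count was not tested. In 1219 members every KO DP library lay above every WT DP library, as in 24.0% of regions with enough signal. Every OE SP library lay below every WT SP library in 1211 members (55.9% of regions with enough signal), and both held in 1211 (14.6%). Nothing about the members is read from these counts, because the same contrasts chose them.

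Reading the changes in libraries that did not choose the regions gives a measure that the selection did not set. When replicate 1 of each group chose 1628 regions by the same rule, their median L in replicate 2 was 0.86 in the knockout and -1.01 with induced Etv2. Both signs held in 89.3% of them, against 26.3% of all regions with enough signal, and 34.0% passed both 0.8 and -0.8 again, against 1.78%. When replicate 2 chose 1229 regions, their median L in replicate 1 was 0.79 and -1.58. Both signs then held in 93.4%, against 34.6%, and 42.1% passed both limits, against 2.27%. Most regions chosen by either replicate thus kept both signs in the other, but fewer passed both limits again, and 438 regions met the whole rule in both. The libraries of a group share line and sort, so this covers the spread between libraries and not that between lines.

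Lower accessibility with induced Etv2 was common among regions that differed in the knockout in either direction. Of 3183 regions with L of at least 0.8 in KO DP, 1709 (53.7%) had L of at most -0.8 in OE SP, and the limit on the wild-type difference removed 490 of those to leave the members. Of 2774 regions with L of at most -0.8 in KO DP, 1368 (49.3%) fell likewise in OE SP. Over all regions with enough signal the share was 32.9%, or 37.3% of those farther than 1 kb from a gene end. At that distance the shares were 55.2% for knockout-gained and 52.4% for knockout-lost regions. Members made up 38.3% of the knockout-gained regions and 3.60% of the 33840 regions lost with induced Etv2. Of the same 2774 knockout-lost regions, 122 (4.40%) had L of at least 0.8 in OE SP. That count depends on the filter, which needs means of at least 20 in KO DP and WT SP. A mirror rule asked for those means in WT DP and OE SP, and for WT SP less than 1 log2 unit below WT DP. It kept 391 regions lost in the knockout and gained with induced Etv2, by the same limits of 0.8. These pairings share no library between the knockout and the induced contrast, and they were not tested.

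**Figure D2:**
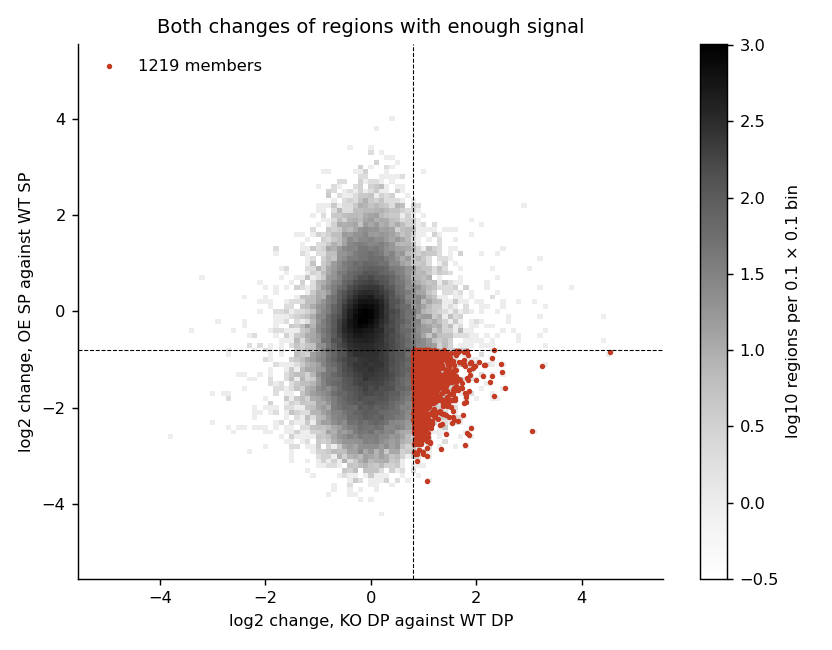
L of KO DP against WT DP (x axis) and of OE SP against WT SP (y axis) for the 102909 regions with enough signal, as a grey density on a log10 scale, with the members in red and the limits of 0.8 and -0.8 dashed. Most regions have a small knockout change and a wide range of changes with induced Etv2, and the members fill the lower right corner, up to 4.54 on the x axis and down to -3.51 on the y axis.

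Between the wild-type groups, members were not of 1 kind. The median L of WT SP against WT DP was 0.46 in the members and 0.13 in all regions with enough signal, but the rule favours a low WT DP and a high WT SP mean. Read in the replicate that did not choose the regions, the median was 0.28 and 0.21. WT SP was at least 0.5 log2 units above WT DP in 573 members (47.0%), within 0.5 in 540 (44.3%) and at least 0.5 below in 106 (8.70%). The limma fit called 90 members higher in WT SP (6.20% of all regions tested) and 57 lower (8.12%), and the rule bounds this contrast from above. The 57 members called lower had a median of 84.7 in WT DP, 187 in KO DP, 32.6 in WT SP and 10.4 in OE SP. The 90 called higher had medians of 27.9, 64.0, 54.2 and 17.3 in the same order. KO DP was the highest and OE SP the lowest median in both sets, an order that the rule favours. The order of WT SP and WT DP is how the sets were split. The widest fall from WT DP to WT SP, singled out after its values were seen, was at chr5:127076168-127076568, with no protein-coding gene within 100 kb. It measured 207 and 204 normalized reads in WT DP, 406 and 347 in KO DP, 31.6 and 33.7 in WT SP, and 2.92 and 5.26 in OE SP.

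The score of a member is the smaller of its rise in the knockout and its fall with induced Etv2. In the 12 members of highest score, both KO DP libraries lay above, and both OE SP libraries below, every wild-type library. The score chose them for large changes in both contrasts, so this separation is only a description. The highest score was at chr9:107292606-107293006, 2.73 kb from an end of Mapkapk3, a kinase activated by p38. It measured 51.4 and 29.6 normalized reads in WT DP, 379 and 368 in KO DP, 78.4 and 89.2 in WT SP, and 15.3 and 6.57 in OE SP. The KO DP libraries were far above all others, and L was 3.06 in the knockout and -2.48 with induced Etv2. Near Klf13, a zinc finger transcription factor of the Krüppel-like family, the region chr7:64004985-64005385 measured 122 and 106 in WT DP, 424 and 433 in KO DP, 108 and 121 in WT SP, and 13.1 and 17.1 in OE SP. There both wild-type groups overlapped, with L of WT SP against WT DP at 0.00. At chr10:18188754-18189154, near Ect2l, a relative of the guanine nucleotide exchange factor Ect2, WT DP measured 116 and 110, KO DP 416 and 412, WT SP 67.2 and 53.5, and OE SP 8.75 and 3.94. This region fell stepwise from KO DP through WT DP and WT SP to OE SP, without overlap between groups.

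Apold1, a gene of early endothelial response, lay 19.4 kb from chr6:134962163-134962563, which measured 40.8 and 44.9 in WT DP, 221 and 253 in KO DP, 66.2 and 70.4 in WT SP, and 16.0 and 17.1 in OE SP. All 4 groups were separate there, and L was 2.34 and -1.76. Grxcr1, which is needed for the stereocilia of hair cells, lay 26.7 kb from chr5:68193111-68193511, with 44.7 and 27.8 in WT DP, 138 and 159 in KO DP, 51.9 and 38.7 in WT SP, and 2.19 and 6.57 in OE SP. Itga9, an integrin alpha subunit, carried chr9:118656298-118656698, with 34.9 and 38.6 in WT DP, 133 and 149 in KO DP, 36.6 and 53.5 in WT SP, and 2.19 and 17.1 in OE SP. In both of these the wild-type groups overlapped and OE SP was lowest. Ppfibp1, which encodes liprin beta 1, lay at chr6:146962113-146962513, with 61.2 and 51.2 in WT DP, 195 and 203 in KO DP, 108 and 90.2 in WT SP, and 5.11 and 31.5 in OE SP. Its OE SP libraries differed from each other more than those of any other group.

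The remaining 5 of the 12 had no protein-coding gene within 100 kb. They lay on chromosome 12 (3 regions) and chromosome 7 (2 regions), 230 to 904 kb from the nearest gene end. The highest of these in KO DP was chr12:97640014-97640414, which measured 56.3 and 71.0 in WT DP, 226 and 239 in KO DP, 46.8 and 53.5 in WT SP, and 2.19 and 3.94 in OE SP. The wild-type groups did not overlap, and WT SP was the lower. The region chr7:53931162-53931562 was at 21.4 and 30.5, 91.5 and 108, 27.5 and 22.8, and 2.19 and 3.94 in the same order, with overlapping wild-type groups. KO DP was the highest in each of the 12 and OE SP the lowest, an order that the choice by score favours.

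**Figure D3:**
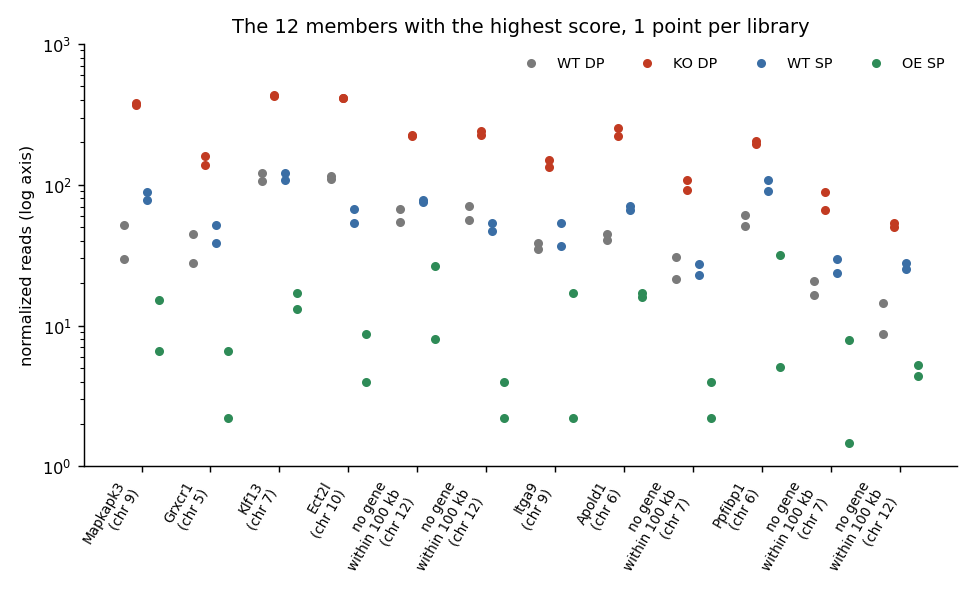
Normalized reads (log axis) in each library for the 12 members of highest score, 1 point per library, coloured by group and named by the assigned gene. In every one both KO DP points lie above all other points and both OE SP points below them.

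Members with the largest single changes, picked after their values were seen, were less balanced. At chr13:119596348-119596748, 13.7 kb from an end of Tmem267, WT DP measured 46.6 and 49.4 and KO DP 1319 and 1130, the largest knockout rise among the members (L of 4.54). WT SP was at 58.0 and 59.5 there and OE SP at 27.7 and 32.8, a small fall that only just met the rule (L of -0.85). Near Grin2d, which encodes a subunit of the NMDA glutamate receptor, chr7:45841911-45842311 measured 40.8 and 37.7 in WT DP, 414 and 418 in KO DP, 28.5 and 27.8 in WT SP, and 12.4 and 7.88 in OE SP. The knockout rise exceeded the fall with induced Etv2 in both. The reverse held at chr7:119327775-119328175, with 301 and 304 in WT DP, 674 and 597 in KO DP, 190 and 209 in WT SP, and 2.19 and 23.6 in OE SP (L of 1.06 and -3.51).

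Rarb, the retinoic acid receptor beta, had 8 members, the most of any gene. Its gene span on chromosome 14 runs from 16430839 to 17082331 and 25 regions with enough signal were assigned to it. The member of highest score, chr14:16572794-16573194, measured 78.6 and 95.2 in WT DP, 318 and 326 in KO DP, 106 and 124 in WT SP, and 30.6 and 51.2 in OE SP. All groups were separate, with KO DP more than any other. Its neighbour chr14:16571091-16571491 measured 41.7 and 48.5 in WT DP, 136 and 111 in KO DP, 49.9 and 51.5 in WT SP, and 3.65 and 11.8 in OE SP. A further member, chr14:16569648-16570048, had 97.1 and 101 in WT DP, 213 and 203 in KO DP, 142 and 159 in WT SP, and 27.7 and 90.7 in OE SP. There OE SP replicate 2 came close to the WT DP libraries, whereas replicate 1 lay far below them. The other 5 members of Rarb had KO DP means of 32.1 to 162, L of 0.86 to 1.28 in the knockout and -1.22 to -0.81 with induced Etv2.

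The rest of Rarb followed its members only in part, more in the knockout than with induced Etv2. Its 17 other regions with enough signal had a median L of 0.45 in the knockout, from 0.04 to 2.23. With induced Etv2 their median was -0.25, from -2.87 to 2.20. The limit of 20 on the KO DP mean leaves out Rarb regions that fell in the knockout. At chr14:17020004-17020404, for example, the mean was 26.4 in WT DP and 10.5 in KO DP (L of -1.02). Over all 39 regions assigned to Rarb, members included, the limma fit called 7 higher in KO DP and 1 lower. Of all regions tested, 1.72% were called higher. At chr14:16448709-16449109 the group means were 54.4 in WT DP, 273 in KO DP, 94.8 in WT SP and 78.9 in OE SP, a rise in the knockout with no matching fall. At chr14:16714493-16714893 they were 16.2, 35.7, 40.7 and 206, so that induced Etv2 went with a gain. The 10 Mb window of chromosome 14 from 10 to 20 Mb, which contains Rarb, had the highest share of members of any such window with at least 100 regions, 20 of 271 (7.38%).

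**Figure D4:**
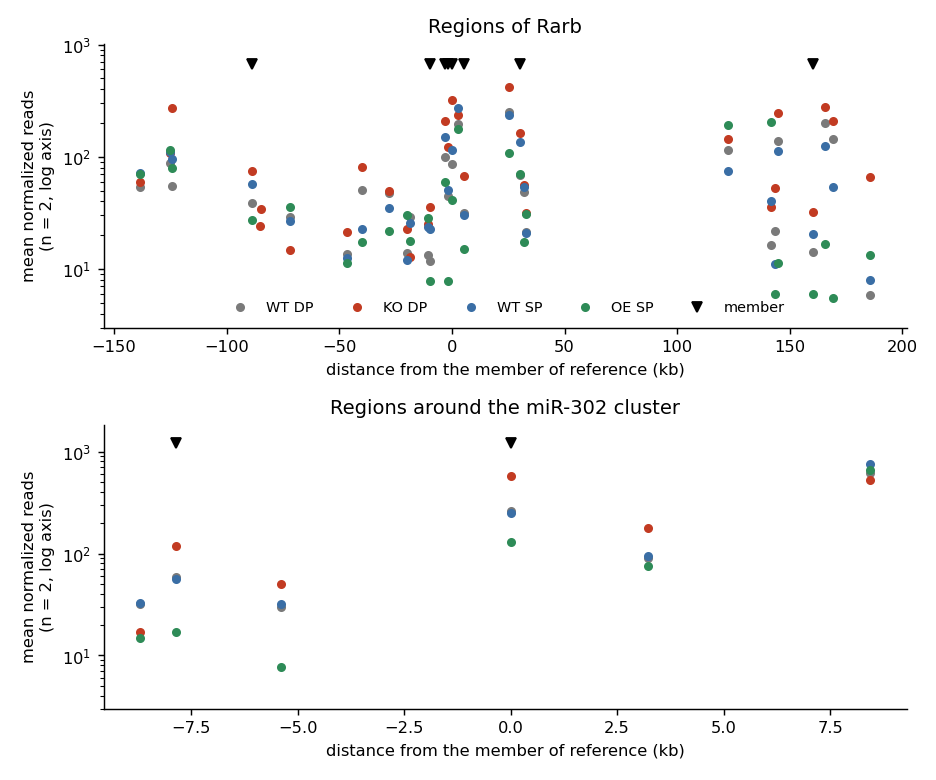
Mean normalized reads per group (n = 2 libraries, log axis) for the regions of Rarb within 200 kb of its top member and for the regions around the miR-302 cluster, against the distance in kb from the member chr14:16572794-16573194 or chr3:127544666-127545066. Triangles mark members; means of 0 cannot be drawn on the log axis, and the symbols of the 4 groups show KO DP highest at every member.

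The miR-302 cluster encodes microRNAs of pluripotent and early embryonic cells. They lie in an intron of Larp7, which encodes a binding protein of the 7SK RNA. The member chr3:127544666-127545066 ends 162 bp before the Mir302b hairpin and covers most of the Gm51018 window printed above. It measured 243 and 278 in WT DP, 551 and 605 in KO DP, 241 and 257 in WT SP, and 127 and 133 in OE SP. The wild-type groups overlapped, KO DP was well above them and OE SP well below, and L was 1.14 and -0.91. These mature 3p arms of the cluster in RefSeq (GRCm38.p6), read from the plus strand of chromosome 3, are shown because the member lies beside them; capitals mark the seed, bases 2 to 8.
miR-302b-3p: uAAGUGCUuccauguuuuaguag
miR-302d-3p: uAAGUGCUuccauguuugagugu
miR-302c-3p: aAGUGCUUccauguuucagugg
miR-367-3p: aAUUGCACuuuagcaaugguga
The first pair share a seed, miR-302c-3p as listed has the same letters shifted by 1 base, and miR-367-3p has another seed. miR-302a-3p belongs to the same cluster.

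Around the cluster the regions did not all follow the members. A second member, chr3:127536811-127537211, measured 51.4 and 65.6 in WT DP, 121 and 114 in KO DP, 66.2 and 46.6 in WT SP, and 19.7 and 14.5 in OE SP. Between the members, chr3:127539274-127539674 leaned the same way without passing the limit in the knockout (L of 0.68 and -1.54). Beyond the second member, chr3:127535962-127536362 was lower in both contrasts (L of -0.74 and -0.92). Just past the hairpins, chr3:127547891-127548291 was higher in KO DP (206 and 151, against 97.1 and 85.3 in WT DP) and hardly lower in OE SP (76.6 and 74.9, against 86.5 and 103 in WT SP), and was not a member. At chr3:127553107-127553507 WT DP measured 598 and 631, KO DP 554 and 486, WT SP 768 and 743, and OE SP 646 and 658. That region, the most open of the locus, was thus slightly lower in both contrasts (L of -0.24 and -0.21). Another member lay 843 bp from the hairpin of Mir335, which lies within the imprinted gene Mest, with KO DP at 69.7 and 82.0 against 36.9 and 32.3 in WT DP. In OE SP it was at 21.2 and 43.4 against 68.2 and 68.4 in WT SP.

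Cpne4, which encodes a copine, a protein that binds phospholipids in the presence of calcium, had 4 members with some of the largest knockout rises. The region chr9:104593290-104593690 measured 42.7 and 45.8 in WT DP, 271 and 265 in KO DP, 19.3 and 23.8 in WT SP, and 9.48 and 5.26 in OE SP. The region chr9:104587823-104588223 lay on a RefSeq start of Cpne4 inside the gene span, 21.1 kb from the nearest gene end. There WT DP was at 28.2 and 22.5, KO DP at 174 and 156, WT SP at 20.4 and 31.7, and OE SP at 9.48 and 6.57. Both had low wild-type values and a knockout rise of about 2.5 log2 units (L of 2.47 and 2.49). The 5 other Cpne4 regions with enough signal had a median L of 0.18 in the knockout and 0.03 with induced Etv2. These leave out the Cpne4 regions with less signal. Over all 19 regions assigned to Cpne4, members included, the limma fit called 11 higher in KO DP and 0 lower. Of all regions tested, 1.72% were called higher. Emb, which encodes the membrane glycoprotein embigin, also had 4 members. The highest, chr13:117215474-117215874, measured 85.4 and 91.6 in WT DP, 363 and 324 in KO DP, 71.2 and 43.6 in WT SP, and 27.7 and 22.3 in OE SP. Both genes held members in which the OE SP libraries differed little from each other.

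Erc2, a gene of the presynaptic active zone, had 5 members, and Auts2, linked to neural development, had 4. In both genes lower accessibility with induced Etv2 was common: the other regions with enough signal had a median L of -1.36 in Erc2 (46 regions) and -1.13 in Auts2 (86 regions). Their median L in the knockout was 0.03 and -0.17. Members there thus stood out from the rest of the gene by their knockout rise, which the rule required. The Erc2 region chr14:28313856-28314256 measured 220 and 226 in WT DP, 407 and 459 in KO DP, 401 and 376 in WT SP, and 13.9 and 118 in OE SP. At the Auts2 region chr5:131990388-131990788, WT DP was at 111 and 81.7, KO DP at 185 and 195, WT SP at 26.5 and 32.7, and OE SP at 11.7 and 10.5. The first had its wild-type SP libraries near the knockout level, and the second had them far below wild-type DP. Members were otherwise spread thinly: 1042 had a gene within 100 kb, these genes numbered 908, and 805 of them had 1 member.

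Among gene lists chosen with earlier results of these data known, members were not concentrated at vessel or blood genes. Over all protein-coding genes, 1042 of 94665 regions with enough signal were members. Endothelial genes had 3 of 282 regions (1.06%) and hematopoietic genes 2 of 173 (1.16%). Aplnr, the apelin receptor of early mesoderm and endothelium, had a member at its gene end, with 121 and 120 in WT DP, 285 and 282 in KO DP, 158 and 160 in WT SP, and 31.4 and 93.3 in OE SP. The member assigned to Kdr, 69.8 kb away, measured 15.5 and 18.9 in WT DP, 36.9 and 49.9 in KO DP, 32.6 and 26.8 in WT SP, and 9.48 and 11.8 in OE SP. Both stood highest in KO DP, although Kdr itself marks the sort. S1pr1, a sphingosine 1-phosphate receptor, had a member with KO DP at 38.6 and 64.2 against 29.1 and 23.4 in WT DP. Both hematopoietic members lay near Meis1, a homeodomain factor of blood stem cells. The stronger, chr11:19023213-19023613, measured 104 and 115 in WT DP, 264 and 295 in KO DP, 161 and 140 in WT SP, and 22.6 and 42.0 in OE SP.

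Heart, lateral plate, endoderm and BMP genes had shares of 1.94% to 1.99%, on small counts. Endoderm genes had 4 members of 206 regions (1.94%), at Cxcr4 and Epcam. Counting only regions within 10 kb of a gene, the endoderm share was 1 of 122 (0.820%), against 0.997% over all genes. At that distance the heart, lateral plate and BMP shares were 2.12%, 1.72% and 1.66%. Cardiac genes had 7 members of 360 regions (1.94%), at Gata5, Isl1, Myl7, Tbx20, Ttn and Wnt2. Near Tbx20, a T-box factor of the developing heart, chr9:24836998-24837398 measured 37.9 and 35.9 in WT DP, 82.3 and 85.6 in KO DP, 80.4 and 69.4 in WT SP, and 10.9 and 22.3 in OE SP. WT SP and KO DP were close there, and OE SP was far below. Near Wnt2, a secreted signal of early heart progenitors, chr6:18003162-18003562 measured 45.6 and 43.1 in WT DP, 195 and 159 in KO DP, 45.8 and 59.5 in WT SP, and 9.48 and 35.5 in OE SP. Gata5, a GATA factor of heart and endoderm, had a member at 40.8 and 35.9 in WT DP, 78.9 and 74.9 in KO DP, 61.1 and 67.4 in WT SP, and 14.6 and 27.6 in OE SP. Isl1, a LIM homeodomain factor of the second heart field, had 2 members, with L of 0.86 and 0.88 in the knockout and -2.39 and -1.47 with induced Etv2. The member of Myl7, which encodes an atrial myosin light chain, had L of 0.88 and -1.40. Over all 360 cardiac regions the median L was -0.01 in the knockout and -0.93 with induced Etv2, values that come mostly from regions that are not members.

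Genes of lateral plate and intermediate mesoderm had 6 members of 310 regions (1.94%), at Bmp2, Bmp7, Emx2, Sall4, Tbx4 and Tcf21. Emx2, a homeodomain factor of kidney and forebrain, had the largest fall of them: chr19:59551674-59552074 measured 125 and 151 in WT DP, 313 and 284 in KO DP, 61.1 and 73.4 in WT SP, and 10.2 and 10.5 in OE SP. Tcf21, a bHLH factor of epicardium and lateral mesoderm, had a member 0.484 kb from a gene end, with L of 1.07 and -0.82. The BMP and TGF beta pathway had 10 members of 502 regions (1.99%), among them regions of the ligands Bmp2 and Bmp7, the receptors Bmpr1b and Tgfbr2, the secreted BMP inhibitor Nog, the intracellular inhibitor Smad7, the latent TGF beta binding protein Ltbp1 and the target Msx1. The member assigned to Tgfbr2, chr9:116259235-116259635, lay 83.9 kb from the gene. It measured 22.3 and 14.4 in WT DP, 50.4 and 55.9 in KO DP, 25.4 and 25.8 in WT SP, and 3.65 and 3.94 in OE SP. Nog had 2 members, with L of 0.91 and 0.93 in the knockout and -2.22 and -1.47 with induced Etv2. These genes were assigned by distance alone, with the Msx1 member 96.1 kb and a Bmp2 member 54.3 kb away. Of the 10 members, 5 lay within 10 kb of their gene.

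The other lists had between no member and about the share of all genes. Wnt pathway genes had 2 of 550 regions (0.364%), at Fzd7 and Wnt2, and neuroectoderm genes had 0 of 208. Notch genes had 1 of 249 (0.402%), at Hes1, and pluripotency genes 1 of 203 (0.493%), near Tet1, a dioxygenase of methylated cytosine. The Tet1 member measured 39.8 and 46.7 in WT DP, 106 and 111 in KO DP, 58.0 and 84.3 in WT SP, and 10.2 and 27.6 in OE SP. Paraxial and streak genes had 2 of 318 (0.629%), both near Lhx1, a LIM homeodomain factor, and guidance and adhesion genes 3 of 551 (0.544%), at Slit3 and Sema3f. One Lhx1 member was higher in WT SP (130 and 115) than in WT DP (67.0 and 61.1), and the other was lower (63.1 and 66.4 against 133 and 111), while KO DP was highest in both, at 186 and 182 and at 305 and 264. Both wild-type orders thus occur at a single gene. Smooth muscle and mesenchyme genes had 3 of 296 (1.01%), FGF and receptor kinase genes 3 of 320 (0.938%), Hippo genes 2 of 242 (0.826%) and housekeeping genes 1 of 99 (1.01%). Near Vgll3, a cofactor of TEAD proteins, chr16:65850089-65850489 measured 25.2 and 23.4 in WT DP, 66.3 and 74.9 in KO DP, 45.8 and 56.5 in WT SP, and 6.57 and 13.1 in OE SP. Etv5, an ETS factor like Etv2, had a member at 54.6 and 45.2 in KO DP against 23.3 and 29.6 in WT DP. No list was tested, since the members were chosen on these samples.

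Members lay away from gene ends. Within 1 kb of an end of a protein-coding gene lay 43 members (3.53%), against 16.1% of regions with enough signal. Regions with a WT DP mean in the members' 10th to 90th percentile lay there in 6.76% of cases, and members of that band in 3.49%. The share was 7.38% among knockout-gained regions that were not members, 10.2% among knockout-lost regions and 4.88% among the other regions lost with induced Etv2. Distance from genes was thus shared with the regions lost with induced Etv2 in general. More than 100 kb from any protein-coding gene lay 177 members (14.5%), against 8.01% of regions with enough signal. Nearly all members, 1218, had the standard width of 401 bp.

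Gdf2, which encodes BMP9, a ligand of the endothelial receptor ALK1, had 2 members at its ends, and the first overlaps the promoter printed above. That region, chr14:33940800-33941200, measured 42.7 and 41.3 in WT DP, 104 and 92.7 in KO DP, 46.8 and 47.6 in WT SP, and 10.2 and 19.7 in OE SP. The second, chr14:33945896-33946296, measured 45.6 and 35.0 in WT DP, 124 and 98.6 in KO DP, 29.5 and 25.8 in WT SP, and 12.4 and 2.63 in OE SP. Both regions are members, so the rule fixed that KO DP lay above WT DP and OE SP below WT SP at each. Among the other printed promoters, Smpx, a small protein of striated muscle, had 42.7 and 39.5 in WT DP, 87.3 and 79.6 in KO DP, 53.9 and 69.4 in WT SP, and 3.65 and 19.7 in OE SP. The member on the Gm33760 window measured 70.9 and 72.8 in WT DP, 369 and 377 in KO DP, 31.6 and 26.8 in WT SP, and 11.7 and 5.26 in OE SP. It had the largest knockout rise of the regions on the printed promoters (L of 2.30). Shld1, part of the shieldin complex of DNA repair, had 212 and 190 in WT DP, 393 and 330 in KO DP, 276 and 296 in WT SP, and 25.5 and 133 in OE SP.

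On the chromosomes, the share of members ran from 0.760% of regions with enough signal on chromosome 19 to 2.03% on chromosome 14, and the Y chromosome had 1 of 28. Chromosomes 6 (1.72%) and 13 (1.45%) followed chromosome 14. Of the members, 92 (7.55%) had another member within 10 kb and 192 (15.8%) within 50 kb, and 6 of 240 windows of 10 Mb had none. Members were thus found on every chromosome that was searched.

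Regions beside members that did not meet the rule leaned the same way. Within 2 kb of a member, 323 such regions had a median L of 0.24 in the knockout and -0.79 with induced Etv2. At 2 to 5 kb the medians were 0.05 and -0.54, and at 250 to 1000 kb they were -0.09 and -0.34. The limma fit called 4.02% of the nearest regions higher in the knockout and 0.882% of those at 250 to 1000 kb. The lean was thus largest within 2 kb in both contrasts, and the medians came close to those of all non-members at 50 to 100 kb (-0.07 and -0.39, against -0.08 and -0.35). The nearest regions also lay less often at gene ends (7.43% against 16.7%), and the part of this in the result was not tested.

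**Figure D5:**
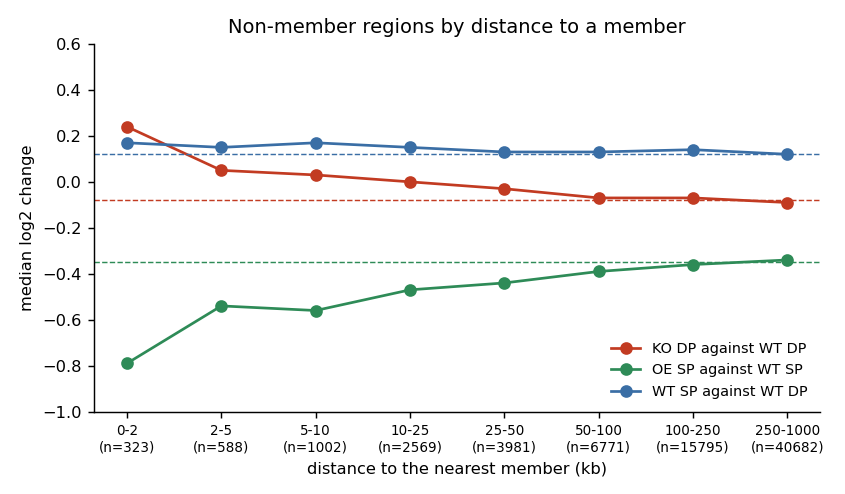
Median L of regions that are not members, by distance in kb to the nearest member (n regions per bin below the axis), in 3 contrasts; dashed lines give the median of all 101690 non-members with enough signal. Within 2 kb the knockout median is 0.24 and the induced Etv2 median is -0.79, and both approach the dashed lines with distance.

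The OE SP libraries differed more at the members than elsewhere. Replicate 2 was higher than replicate 1 in 979 members (80.3%), against 71.0% of regions with enough signal and 72.2% of the other regions lost with induced Etv2. The median log2 ratio of replicate 2 to replicate 1 was 0.56 in the members, 0.25 in all and 0.37 in the other lost regions. In WT DP, KO DP and WT SP the same ratio in the members was 0.01, 0.07 and 0.04. In all regions with enough signal it was -0.01, -0.07 and -0.01. The KO DP libraries thus also differed in another way at the members, with replicate 2 higher in 60.8% of them against 38.0% of all. At Col1a2, which encodes a collagen chain, the OE SP libraries measured 46.0 and 122 against 225 and 215 in WT SP. The size of the fall with induced Etv2 thus depended on the library, and the rule fixed its direction.

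At the edge of the rule, the member nearest the limit of 0.8 was near Utrn, which encodes the dystrophin relative utrophin, with 24.3 and 17.1 in WT DP, 37.8 and 41.6 in KO DP, 41.7 and 38.7 in WT SP, and 5.11 and 18.4 in OE SP. A region near Mark2 that just missed it measured 60.2 and 59.3 in WT DP, 96.6 and 119 in KO DP, 73.3 and 98.1 in WT SP, and 10.2 and 32.8 in OE SP. These regions on either side of the limit were alike. The WT SP mean was under 25 in 170 members, and 90 further regions failed only the limit on the wild-type difference by less than 0.1.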

How the data were processed

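ATAC signal was analysed in 8 libraries, 2 in each of 4 groups taken from the sample labels. The submitters' processing notes name Bowtie2, MACS2, DiffBind 3.14.1 and build mm10, with no role for each. The deposited values are a signal, normalized reads per region. Divided by the smallest step of their library, 100% gave whole reads within 0.01 reads. How the authors set the scaling, shifted reads for the Tn5 cut, treated duplicates and called peaks was not given in the sources used here, and another scaling shifts all changes together. The median member held 12 to 94 reads per library.

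Members were found by the rule stated in the report. Regions were fitted with limma 3.58.1 (R 4.3.3) on log2(value + 5), for means of at least 10, with 4 group means, an empirical Bayes trend, two-sided tests and Benjamini-Hochberg adjustment at 0.05 over 167573 regions. The fit was tested on simulated data. edgeR 4.0.16 and DESeq2 1.42.0 were run on recovered reads as alternatives. Genes are the nearest RefSeq protein-coding span within 100 kb, on either strand, and a gene end is within 1 kb of either end. Named regions were the 12 of highest score, up to 3 per gene list, those of the 5 genes with most members, up to 6 gene-end regions, those at the rule's limits, and those at miRNA hairpins or promoter windows, from which the text takes examples. Members and lists were chosen with earlier results of these data known. Some named regions are not reported here.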

Additional observations from a re-analysis of the deposited data

How the results depend on the processing

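The rule kept 668 regions with means of at least 40, 448 with changes of at least 1.0, and 1001 to 1480 with 1 library left out. Of the members, the knockout count of 462 became 242 with log2(value + 1), 841 with rescaling on the 10000 highest regions, 805 with quantile normalization, 1219 with the compared groups alone and 951 with edgeR, and ran from 31 to 1219 with 1 library left out. The count in both comparisons, 461, became 241, 819, 759, 1053 and 897 in the same settings, 303 with DESeq2, and 31 to 1200 with 1 library left out. The count lower in OE SP was 833 (DESeq2) to 1214. With the replicate number as a replicate block, the counts were 448, 1214 and 447. Deviations of same-numbered libraries correlated at 0.00 to 0.06, so little shared deviation was seen. Whether same-numbered libraries were prepared together cannot be told from this. Within 5 kb of a gene end lay 13.0% of members and 30.8% of regions with enough signal. Rescaling to median-of-ratios moved the median change with induced Etv2 over all regions from -0.36 to -0.14 and in members from -1.35 to -1.17. Under the 3 rescalings 943, 968 and 998 of the 1219 members still met the rule, and no change of a named member reversed. Of 56 named members called in the knockout, 45 lost the call under some alternative. Depth limits members near 20 normalized reads. The causes were not tested.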

Other observations

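Outside the members, 63 regions off chromosome 8 had a KO DP mean of at least 20 normalized reads and 0 in all of the other 6 libraries, 10 of them on chromosome 14. None was a member, because the rule needs signal in WT SP. At Rarb, chr14:16487550-16487950 and chr14:16488040-16488440 were of this kind, with KO DP means of 24.0 and 34.4. The reverse, 0 in both KO DP libraries and at least 20 in the other 6, was found in 2 regions, both on chromosome 7: chr7:30633790-30634190 at Etv2 itself, and chr7:39655244-39655644, where the other 6 libraries held 268 to 532. No region had this pattern for OE SP in either direction. Line and genotype cannot be told apart in these values.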
